A study of Homo sapiens with 4 samples.

Results

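The genes described here are those whose RNA stood on the same side of the control library with all 3 targeting siRNAs given to DU145 cells. They were chosen from the 11075 genes that stand in all 4 deposited tables with an average of at least 5 CPM (read pairs of a gene scaled to a common library total, the authors' unit), of 20474 genes in all 4 tables. For each gene the log2 ratio of CPM + 1 to the control library was taken in each of the 3 targeting libraries, and the smallest of the 3 ratios is called the smallest shared change. By that rule 2566 genes (23.2%) were higher than control with all 3 siRNAs and 1951 (17.6%) were lower. The members described in detail are the 37 genes at least 1.5-fold higher with every siRNA (0.334%) and the 48 at least 1.5-fold lower (0.433%). These values chose the members, so they are given as a description.

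The series holds 4 RNA-seq libraries of wild-type DU145 cells, 1 per siRNA, each from cells given 75 nM siRNA with a lipid transfection reagent for 48 h. The groups are control siRNA (a negative control siRNA, 1 library), PTBP1 siRNA (2 libraries, made with 2 different siRNAs and called PTBP1 siRNA 1 and PTBP1 siRNA 2) and DNMT3B-L siRNA (1 library). With 1 control library, a response to any targeting siRNA and a peculiarity of that library cannot be told apart, and this holds for every value below. No untransfected cells were analysed here.

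DU145 is a line from a brain metastasis of a prostate carcinoma. A small interfering RNA is loaded into an Argonaute protein and leads it to RNAs that match it, which are then cut or, where only the first bases match, repressed more weakly. PTBP1 is an RNA-binding protein that holds back the inclusion of many alternative exons, and DNMT3B is an enzyme that sets DNA methylation. Because the targets differ, the comparison asks which genes stood apart from control whichever gene was targeted.

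The targeted genes were read first as a check of the labels. PTBP1 was at 928 CPM with control siRNA, 268 with PTBP1 siRNA 1, 135 with PTBP1 siRNA 2 and 982 with DNMT3B-L siRNA, so that only the PTBP1 siRNA libraries were low, at 28.9% and 14.5% of control. DNMT3B was at 9.77, 8.43, 13.1 and 5.46 CPM in the same order, which is 55.9% of control in the DNMT3B-L siRNA library, and the tables hold genes, not isoforms. All 8 epithelial markers were above 5 CPM on average, with a summed level of 1478 to 2663 CPM, while KLK2, KLK3, TMPRSS2, FOLH1 and ACPP, which mark luminal prostate cells, were listed in no table. The blood cell list, of leukocyte genes and the red cell gene HBB, summed to 2.03 to 2.82 CPM, with PTPRC, CD3E, CD68 and HBB listed in no table. The endothelial sum was 6.28 to 12.3 CPM, the fibroblast sum 17.3 to 28.0 and the neuroendocrine sum 44.4 to 76.5. Depth, as recovered from the CPM values, was 22332245 to 24088975 read pairs per library. In the PTBP1 siRNA 1 library the mitochondrial ribosomal RNA MT-RNR2 was at 16723 CPM, against 7480 to 8726 in the other libraries.

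No gene passed the test across all genes. With limma on log2(CPM + 1), 0 of 14942 genes were higher and 0 were lower (0% each) at an adjusted p under 0.05, and 274 genes (1.83%) had an unadjusted p under 0.05. edgeR called 0 with 266 at an unadjusted p under 0.05, and DESeq2 called 0 with 235. The limma fit has 2 residual degrees of freedom, all from the 3 targeting libraries, and assumes that the control would vary as they do. It also draws each gene's spread toward that of genes of similar level, with 6.52 prior degrees of freedom. Its SE and p therefore do not measure a gene's own spread alone. Over the 85 members the limma adjusted p was 0.9996. The lowest unadjusted p was 0.0020 among the higher members and 0.0018 among the lower ones, and none of these is a test of the members, which the same ratios chose.

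At a threshold of 2-fold with every siRNA, 3 genes were higher (0.0271%) and 2 were lower (0.0181%). Those inside were SLC2A3, SCML2 and TXNDC5 on the higher side, with smallest shared changes of 1.20, 1.11 and 1.04 on the log2 scale. Just outside were DCP2 at 0.92, CDC25A at 0.90 and TDG at 0.89. On the lower side GAL3ST1 at -1.25 and SLC24A1 at -1.02 were inside, and VTN at -0.99, L1CAM at -0.99 and SNX29 at -0.98 were just outside. At 1.5-fold the last genes inside were PLK2 (0.59) and CTD-2562J17.6 (-0.59), and the first outside were SGF29 (0.58) and RFX7 (-0.58). The ratio adds 1 to each CPM, so it understates the difference of genes with low values.

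SLC2A3, the glucose transporter GLUT3, headed the higher genes. It was at 7.55 CPM with control siRNA, 25.8 with PTBP1 siRNA 1, 18.9 with PTBP1 siRNA 2 and 18.7 with DNMT3B-L siRNA, and levels are given in this order from here on. All 3 targeting libraries were above control, as the choice of genes requires, and their mean log2 ratio was 1.36 (limma SE 0.31). The other glucose transporter of the glycolysis list, SLC2A1, was at 384, 687, 451 and 447 CPM. PFKP, the platelet form of phosphofructokinase, was at 471, 676, 614 and 560 CPM. Of the 21 measured genes of glucose transport and glycolysis 5 were higher with all 3 siRNAs (23.8%), these 3 among them, and 3 were lower (14.3%). Over all genes the shares were 23.2% and 17.6%, so the list as a whole was near the background, with a median log2 ratio of -0.02.

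SCML2, a polycomb group protein, was at 14.8, 38.5, 33.5 and 33.0 CPM, with a mean log2 ratio of 1.18 (SE 0.27). TXNDC5, a protein disulfide isomerase of the endoplasmic reticulum, was at 2.80, 6.81, 9.84 and 7.03 CPM. Its exons are shared with the readthrough gene BLOC1S5-TXNDC5 on the same strand. The sources used here do not say how reads in shared exons were counted, so these levels may miss part of its reads. The targeting values had a log2 range of 0.22 in SCML2 and 0.47 in TXNDC5. The control library was the lowest in both genes, as the rule requires.

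DCP2, the catalytic subunit that removes the cap of mRNAs, was at 47.9, 108, 91.3 and 91.7 CPM, with a mean log2 ratio of 1.00 (SE 0.26). TDG, a DNA glycosylase that excises thymine from mismatches and takes part in DNA demethylation, was at 29.7, 60.4, 59.3 and 55.8 CPM. LSM11, a part of the U7 particle that processes histone mRNAs, was at 11.2, 21.8, 19.0 and 22.7 CPM. For TDG the 3 targeting values lay within 0.11 of each other on the log2 scale, and the control value was 0.89 below the nearest of them.

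CDC25A, the phosphatase that activates cyclin-dependent kinases, was at 42.2, 111, 79.5 and 94.9 CPM, while WEE1, the kinase that opposes it, was at 50.2, 84.0, 79.6 and 85.3 CPM. The polo-like kinase PLK3 was at 3.998, 8.30, 8.16 and 8.51 CPM, and PLK2 at 72.1, 109, 111 and 130. PLK3 had the tightest targeting values of the first 15 higher genes, with a range of 0.05 on the log2 scale. Some of its exon bases are shared with TCTEX1D4 on the other strand, and the sources used here do not say whether the counting used strand. WEE1 and PLK2 stand beyond the first 15 and were named after their values were seen.

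FOSL1, a subunit of the AP-1 transcription factor that responds to MAP kinase signalling, was at 70.4, 131, 136 and 144 CPM, with a mean log2 ratio of 0.95 (SE 0.24). ODC1, the first enzyme of polyamine synthesis and a known target of MYC, was at 145, 293, 246 and 328 CPM. IL1RAP, a coreceptor of interleukin 1, was at 32.3, 79.9, 55.9 and 59.2 CPM. In ODC1 DNMT3B-L siRNA gave the highest level and in IL1RAP PTBP1 siRNA 1 did, while the 3 targeting levels of FOSL1 were close together.

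F3, or tissue factor, the receptor that starts coagulation, was at 12.8, 21.7, 25.2 and 26.1 CPM. DNMT3B-L siRNA gave the highest level and PTBP1 siRNA 1 the lowest of the 3. The first 15 also held FAM234B at 17.2, 41.8, 51.6 and 31.4 CPM and the long noncoding RNA LINC01578 at 7.29, 16.9, 16.7 and 13.7 CPM.

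Of the higher members beyond the first 15, IL11, EPHA2, NR4A2 and SGK1 were chosen for naming after their values were seen, and ADM was the first higher gene of the hypoxia list. The cytokine IL11 was at 30.8, 106, 61.0 and 50.4 CPM, and the ephrin receptor EPHA2 at 270, 666, 441 and 444 CPM. The nuclear receptor NR4A2, an immediate early gene, was at 10.5, 16.8, 38.7 and 44.1 CPM. The vasodilator peptide ADM was at 2.09, 3.99, 7.04 and 12.4 CPM, and the serum- and glucocorticoid-regulated kinase SGK1 at 6.71, 10.7, 12.3 and 17.8 CPM. The control library was the lowest for all 5 genes, as the rule for members requires. The siRNAs differed from each other by a log2 range of 1.43 in ADM, 1.34 in NR4A2 and 1.05 in IL11, against at most 0.70 (FAM234B) in the first 15.

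**Figure D1:**
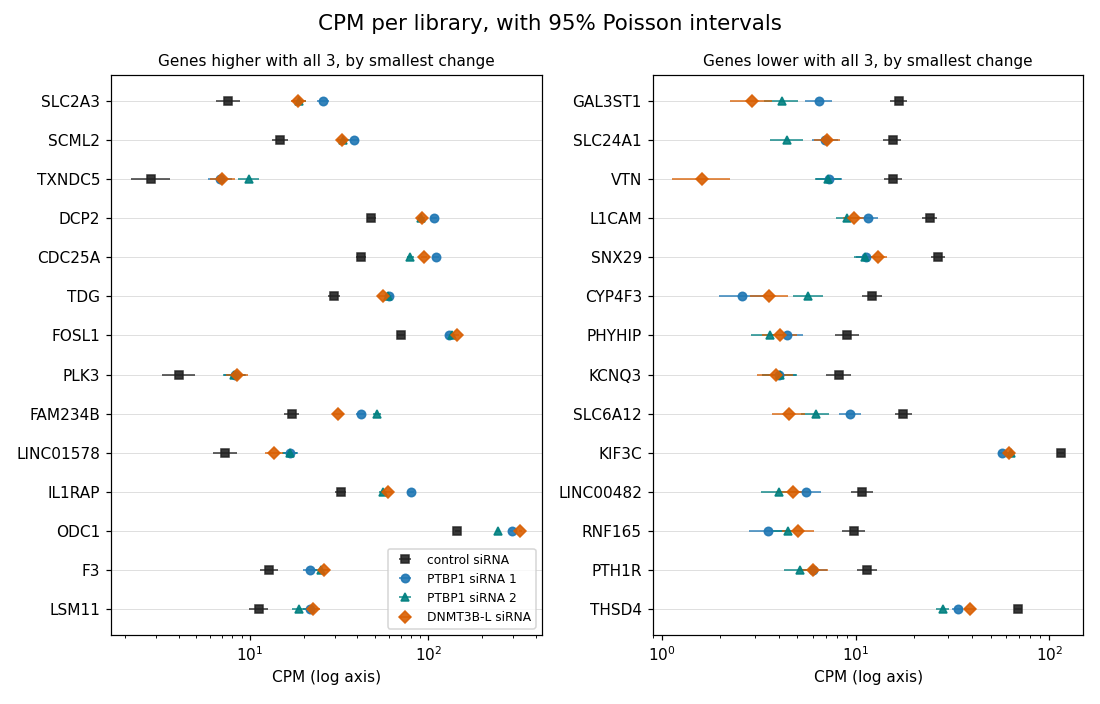
CPM (log axis) in each of the 4 libraries for the genes reported among the 15 with the largest smallest shared change, higher (left) and lower (right) than control with all 3 targeting siRNAs; bars are exact 95% Poisson intervals, which cover counting error only. The control library (black squares) stands apart from the 3 targeting libraries in every gene shown, as the choice of genes requires. For SLC2A3 it is at 7.55 against 18.7 to 25.8 CPM. In VTN the DNMT3B-L siRNA library stands apart from the PTBP1 siRNA libraries as well. In ODC1 and THSD4 the 3 targeting libraries all stand apart from each other, the 2 PTBP1 siRNA libraries included.

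On the lower side the first gene was GAL3ST1, the sulfotransferase that makes sulfatide. It was at 16.7 CPM with control siRNA and at 6.43, 4.14 and 2.91 with the targeting siRNAs, a mean log2 ratio of -1.74 (SE 0.39). SLC24A1, a sodium, calcium and potassium exchanger known from photoreceptors, was at 15.5, 6.93, 4.40 and 7.12 CPM. Its exons overlap DENND4A on the other strand. In both genes the control level was above every targeting level, as the rule requires, and all 4 levels were low.

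SLC6A12, the betaine and GABA transporter, was at 17.6, 9.34, 6.22 and 4.52 CPM. KCNQ3, a subunit of the voltage-gated potassium channel of the M current, was at 8.17, 4.03, 4.06 and 3.85 CPM. The values of KCNQ3 lay within 0.06 of each other on the log2 scale across the 3 siRNAs. PTH1R, the receptor for parathyroid hormone, was at 11.5, 6.02, 5.14 and 6.05 CPM.

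L1CAM, a cell adhesion molecule of the immunoglobulin family, was at 24.1, 11.6, 9.07 and 9.81 CPM, with a mean log2 ratio of -1.18 (SE 0.30). VTN, or vitronectin, was at 15.5, 7.31, 7.21 and 1.61 CPM. Some of its exon bases are shared with AC002094.3 on the same strand. The PTBP1 siRNA libraries agreed closely for VTN and the DNMT3B-L siRNA library was far lower, so that its log2 range of 1.67 was the widest of all 85 members. THSD4, a thrombospondin-repeat protein of the extracellular matrix, was at 69.0, 33.7, 28.2 and 39.0 CPM.

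KIF3C, a kinesin motor subunit, was the most abundant of the first 15 lower genes. It was at 115, 57.1, 63.3 and 61.7 CPM, a mean log2 ratio of -0.91 (SE 0.25), with the 3 targeting values within 0.15 of each other. SNX29, a sorting nexin, was at 26.6, 11.3, 11.1 and 13.0 CPM, and CYP4F3, a cytochrome P450 that inactivates leukotriene B4, was at 12.1, 2.57, 5.70 and 3.58 CPM. Further genes were PHYHIP at 9.02, 4.40, 3.63 and 4.07 CPM, RNF165, a ubiquitin ligase, at 9.77, 3.53, 4.45 and 5.06, and the noncoding RNA LINC00482 at 10.8, 5.56, 4.01 and 4.75. In each of them every targeting library was below control, as the rule requires.

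Of the lower members beyond the first 15, CA12, a carbonic anhydrase of the cell surface, was at 35.7, 12.4, 11.5 and 20.4 CPM. The mucin MUC1 was at 52.9, 32.1, 34.3 and 20.2 CPM, and BMPR2, a receptor for bone morphogenetic proteins, at 70.9, 46.2, 35.1 and 40.1 CPM. The placental alkaline phosphatase gene ALPP was at 47.2, 29.4, 23.6 and 17.6 CPM, and its near-identical neighbour ALPPL2 at 29.5, 17.0, 8.68 and 8.78, so that reads of the 2 genes may have been mixed. MUC1, BMPR2, ALPP and ALPPL2 were chosen for naming after their values were seen.

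Control levels ran from 2.09 to 270 CPM (median 14.8) in the higher members and from 7.95 to 199 CPM (median 19.0) in the lower ones. The higher members lay on 16 chromosomes and the lower on 18. Annotated as protein coding were 34 of 37 (91.9%) and 45 of 48 (93.8%), against 95.4% of all genes under the rule. Exon bases were shared with another annotated gene in 9 of 37 and 20 of 48 members. The share over all genes was not counted, so no difference is read from these counts. Besides the genes flagged above, named members that share bases on the same strand are IL1RAP, LINC01578, WEE1, L1CAM and MUC1. SLC6A12, THSD4, ALPP and TNRC6C share bases with a gene on the other strand. In bulk RNA a lower level can come from fewer cells that express a gene or from less RNA per cell, and these cannot be told apart.

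The rule asks for a change with every siRNA, and the size of the change differed between them. The library with the smallest change was PTBP1 siRNA 1 for 11 higher members, PTBP1 siRNA 2 for 14 and DNMT3B-L siRNA for 12. Among the lower members the counts were 23, 14 and 11, and the median log2 ratio was -0.81, -0.94 and -0.99 in the same order. Among the higher members the medians were 0.90, 0.90 and 0.89. The log2 range among the 3 siRNAs was under 0.25 in 10 of 37 higher and 12 of 48 lower members, and over 0.8 in 5 and 11.

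**Figure D2:**
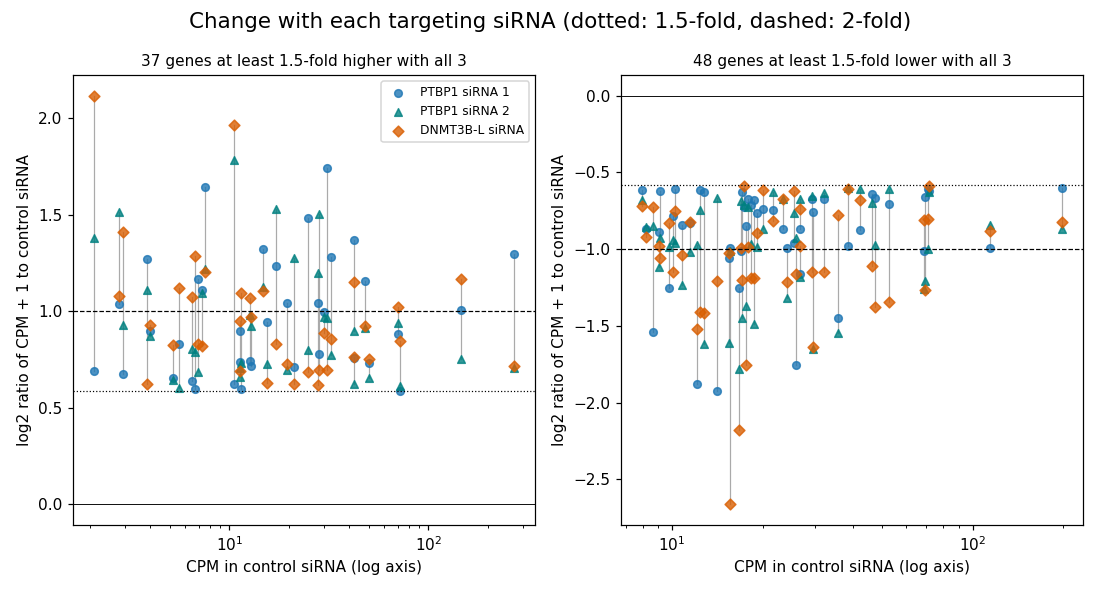
Log2 ratio of CPM + 1 to control siRNA in each targeting library (points, joined by a grey line for each gene) against the control level in CPM (log axis), for the 37 higher and the 48 lower members; the dotted lines mark 1.5-fold and the dashed lines 2-fold. Every point lies beyond the dotted line because the rule requires it, and the length of the grey line shows how far the siRNAs differ, from 0.04 to 1.67 on the log2 scale.

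Beyond the members, 24 lists of genes with a common role were counted, each as the number of measured genes higher or lower than control with all 3 siRNAs. They are read against 23.2% higher, 17.6% lower and a median of the mean log2 ratio of 0.01 over all 11075 genes. Counting error is shown by the exact 95% Poisson interval of the control level, which was clear of all 3 targeting intervals in 863 of the 2566 genes higher with all 3 (33.6%) and 663 of the 1951 lower (34.0%). No list was given a test, and limma passed 0 members of any list at an adjusted p under 0.05.

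The immediate early and MAP kinase feedback genes had the highest share. Such genes are switched on by growth factor signalling, and the feedback genes among them then damp it. Of 18 measured, 11 were higher with all 3 siRNAs (61.1%) and 0 were lower, with a median log2 ratio of 0.52. Besides FOSL1, the phosphatase DUSP4 was at 25.4, 41.8, 39.2 and 38.2 CPM and the early response gene IER3 at 76.1, 134, 108 and 110 CPM. The control interval was clear of all 3 targeting intervals in 5 of the 11 genes, and the median was 0.42 with PTBP1 siRNA 1, 0.56 with PTBP1 siRNA 2 and 0.56 with DNMT3B-L siRNA. The remaining 7 genes were mixed, among them JUN at 67.9, 110, 55.3 and 61.7 CPM, named after its values were seen. Of the NF-kB cytokines and feedback genes 7 of 14 were higher (50%) and 2 were lower, and TNFAIP3, a feedback inhibitor, was at 9.24, 12.7, 13.7 and 18.6 CPM. IER3 stands in both lists.

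Target genes of YAP and TEAD, which respond to cell density and tension, were higher in 10 of 22 (45.5%) and lower in 2, with a median of 0.16. Their first 3 genes were the members F3, AREG and NUAK2. The EGF receptor ligand AREG was at 2.93, 5.27, 6.48 and 9.45 CPM, and the kinase NUAK2 was at 42.4, 72.4, 65.7 and 72.5 CPM. In the list of EGF receptors and ligands AREG was the only 1 of 10 genes higher with all 3, while EGF was at 9.15, 3.45, 6.09 and 7.16 CPM and ERBB2 at 295, 191, 260 and 233.

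Nuclear genes of oxidative phosphorylation were higher in 18 of 37 (48.6%) and lower in 0, by small amounts, with a median of 0.18. CYC1, the haem subunit of complex III, was at 315, 423, 454 and 419 CPM, and ATP5G1, a subunit of the ATP synthase rotor, at 92.4, 122, 128 and 115 CPM. The control interval was clear of the others in 8 of the 18, and the median was 0.03, 0.21 and 0.36 with the 3 siRNAs in the usual order. Of the mitochondrially encoded mRNAs 1 of 13 was higher with all 3 and 0 were lower.

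Genes of DNA replication and nucleotide supply were higher in 14 of 36 (38.9%) and lower in 1, with a median of 0.14. MCM7, a subunit of the replicative helicase, was at 208, 293, 291 and 285 CPM, and the transcription factor E2F1 at 86.5, 105, 119 and 120 CPM. MCM7 was close to equal in the 3 targeting libraries, and 8 of the 14 genes had a control interval clear of the others. The list median was 0.22 and 0.34 with PTBP1 siRNA 1 and DNMT3B-L siRNA and -0.04 with PTBP1 siRNA 2. Of the mitotic genes 12 of 30 were higher (40%) and 4 were lower. BIRC5, which encodes survivin, was at 291, 199, 176 and 228 CPM, against the direction of MAD2L1, a spindle checkpoint protein, at 60.9, 72.7, 77.8 and 82.3 CPM.

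Genes of double-stranded RNA sensing and the interferon response were lower in 13 of 24 (54.2%) and higher in 1, with a median of -0.30. Long double-stranded RNA is sensed by RIG-I-like receptors and induces the IFIT and OAS genes, and short RNAs with certain ends can do so as well. IFIT1 was at 142, 107, 109 and 113 CPM, IFIT3 at 110, 87.7, 71.8 and 61.4, and OASL at 125, 69.7, 100 and 62.3 CPM. The control library was the highest for all 3 genes, which were named for their shared change. The control interval was clear of the others in 6 of the 13, and for the other 7 it overlapped that of at least 1 targeting library. The median of the list was -0.42 with PTBP1 siRNA 1 and -0.29 with DNMT3B-L siRNA but -0.04 with PTBP1 siRNA 2.

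Cholesterol and fatty acid synthesis was lower in 13 of 30 genes (43.3%) and higher in 0, with a median of -0.27, and 11 of the 13 had a control interval clear of the others. The isomerase IDI1 was at 81.2, 58.7, 55.2 and 53.4 CPM, and MSMO1, which removes methyl groups from sterols, at 35.7, 25.7, 18.8 and 22.7. The desaturase SCD was at 2196, 1651, 1164 and 1347 CPM. The median log2 ratio of the list was -0.41 with PTBP1 siRNA 1, -0.29 with PTBP1 siRNA 2 and -0.11 with DNMT3B-L siRNA, so it was farther from 0 with the PTBP1 siRNAs.

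Epithelial junction and keratin genes were lower in 9 of 23 (39.1%) and higher in 1, with a median of -0.24. The exception was CLDN1, a claudin of tight junctions, at 28.4, 39.0, 59.8 and 49.8 CPM. The tight junction protein TJP3 was at 29.1, 21.7, 12.3 and 15.8 CPM and CLDN4 at 11.2, 8.55, 6.09 and 4.88 CPM. The summed level of the 8 epithelial markers, some of which stand in this list, was 2663, 2381, 1478 and 2448 CPM, and its part in the count was not tested. Of the genes of caveolae, integrins and matrix 8 of 29 were lower (27.6%) and 1 higher, the matrix protein THBS1 at 118, 152, 155 and 178 CPM. The caveolar protein gene PRKCDBP was at 52.8, 36.3, 35.8 and 32.1 CPM.

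The machinery of RNA interference was near the background, with 4 of 16 genes higher (25%) and 2 lower. TNRC6C, a scaffold of Argonaute silencing and the only member from this list, was at 21.6, 12.5, 13.6 and 11.8 CPM, whereas the Argonautes AGO4 and AGO2 were at 26.5, 38.2, 37.6 and 32.5 CPM and at 169, 194, 204 and 227. The hypoxia genes were divided, with 3 of 19 higher and 5 lower. HIF1A, the oxygen-sensing transcription factor, was at 233, 137, 129 and 175 CPM.

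The remaining lists stood nearer to the background or were small. Higher and lower counts were 9 and 6 of 26 for unfolded protein and amino acid stress, 3 and 0 of 18 for heat shock and oxidative stress, and 2 and 1 of 17 for TGF-beta targets. They were 20 and 5 of 74 for ribosomal proteins, 3 and 5 of 28 for lysosome and autophagy, 3 and 5 of 20 for glycerolipid synthesis, and 0 and 1 of 8 for histones. Of 5 long noncoding and structural RNAs 3 were higher: SNHG1 at 63.2, 116, 88.7 and 100 CPM, RN7SL2 at 146, 178, 257 and 278, and GAS5 at 111, 156, 144 and 136. Of the stress genes, CRELD2 was at 57.8, 31.8, 44.4 and 41.2 CPM and MTHFD2 at 113, 143, 138 and 161.

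**Figure D3:**
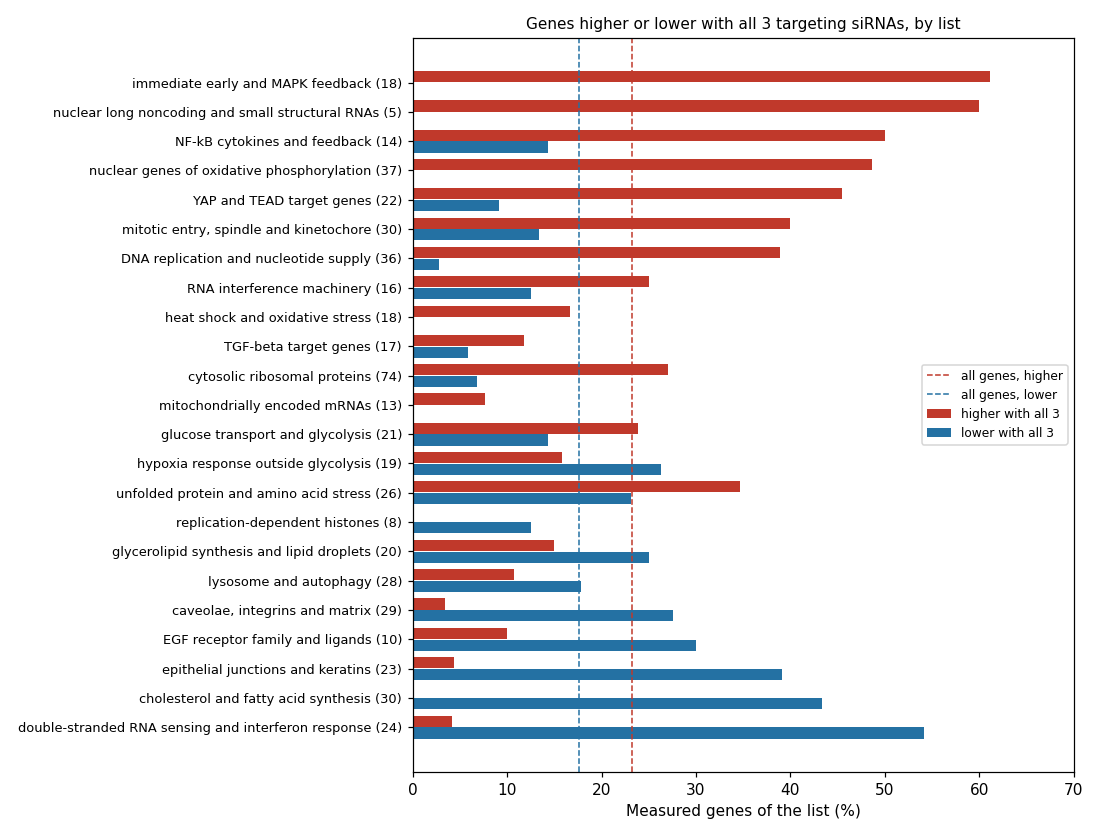
Percent of the measured genes of each list reported here (number in brackets) that were higher (red) or lower (blue) than control with all 3 targeting siRNAs; dashed lines are the same shares over all 11075 genes, 23.2% and 17.6%. Lists run from the highest median log2 ratio at the top, where immediate early genes have 61.1% higher and 0 lower, to the lowest at the bottom, where interferon response genes have 54.2% lower.

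**Figure D4:**
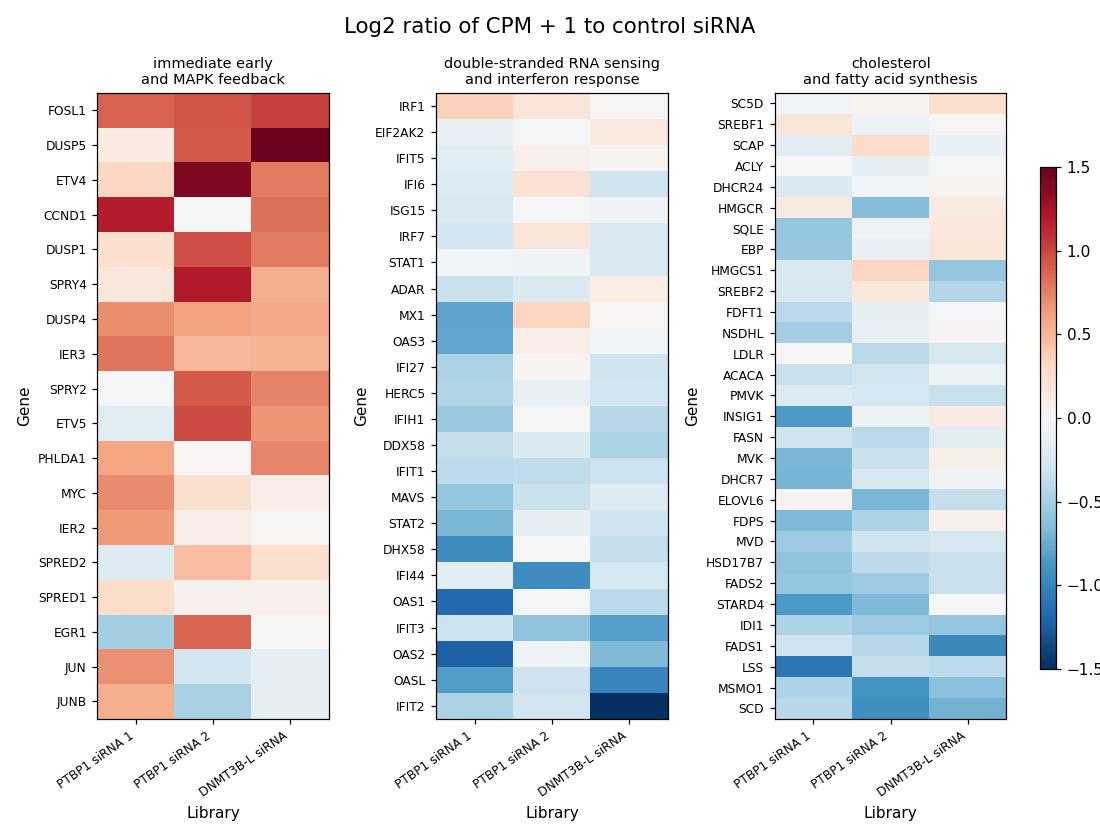
Log2 ratio of CPM + 1 to control siRNA (colour, red higher and blue lower, limited to 1.5 either way) for each gene (rows) of 3 lists in the 3 targeting libraries (columns). FOSL1, DUSP4 and IER3 are red in all 3 columns and IFIT1, IFIT3, IDI1 and SCD blue in all 3, while JUN, MX1 and HMGCS1 differ in direction between libraries.

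A feature that the rule did not use is the 3′ UTR of the genes. AU-rich elements in a 3′ UTR are bound by proteins that shorten or lengthen the life of an mRNA, and many immediate early and cytokine mRNAs carry them. The nonamer TTATTTATT, read on the sense strand, stood in the longest annotated 3′ UTR of 9 of 34 higher members (26.5%), of 3 of 44 lower members (6.82%) and of 1023 of 10518 genes under the rule (9.73%). The median 3′ UTR was 1622 bases long in the higher, 2314 in the lower members and 1732 in all genes, and its GC content was 40.0%, 51.4% and 44.0%. Among 3′ UTRs under 1000 bases the nonamer stood in 3 of 8 higher and 0 of 10 lower members and in 92 of 3114 genes (2.95%). From 1000 to under 2500 bases the counts were 3 of 18 and 0 of 13, and 267 of 3741 genes (7.14%), and in longer 3′ UTRs 3 of 8 and 3 of 21, and 664 of 3663 genes (18.1%). These are descriptions of few genes with no test, and whether the element acts in these cells was not tested.

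The first such site of 6 higher members is shown to let the sequence around the nonamer (in capitals) be compared, from GENCODE transcripts, as DNA letters of the sense strand.
SLC2A3: aacttgagttTTATTTATTttatcctctg
PLK3: tggaccacttTTATTTATTgtcagacact
EPHA2: actggggactTTATTTATTtctagttctt
IL11: aagccagatcTTATTTATTtatttatttc
NUAK2: atttttatttTTATTTATTtatttatttt
PLK2: aataaactttTTATTTATTacagcccaaa
KIF3C: ttaattcatgTTATTTATTcgcggagctc
The last is from a lower member, for comparison. IL11 held 6 such nonamers, counting those that overlap, NUAK2 held 3 and PLK3 held 2 in a 3′ UTR of 312 bases, while SLC2A3, EPHA2, PLK2 and KIF3C held 1 each.

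Promoters were taken from RefSeq (GRCh38.p14), from 250 bases before to 50 after each gene's start, and were matched for 28 of 37 higher and 32 of 48 lower members. Fewer than 80% matched, so shares of motifs over the members are void. Single promoters are shown for F3, AREG and NUAK2, the 3 members that stand in the YAP and TEAD list. The letters searched on both strands were TGANTCA for AP-1, TGACGTCA for the cAMP response element, CACGTG for the E box and TATAAA for the TATA box, and matches are in capitals.
F3 (chr1:94541710-94542009, minus strand): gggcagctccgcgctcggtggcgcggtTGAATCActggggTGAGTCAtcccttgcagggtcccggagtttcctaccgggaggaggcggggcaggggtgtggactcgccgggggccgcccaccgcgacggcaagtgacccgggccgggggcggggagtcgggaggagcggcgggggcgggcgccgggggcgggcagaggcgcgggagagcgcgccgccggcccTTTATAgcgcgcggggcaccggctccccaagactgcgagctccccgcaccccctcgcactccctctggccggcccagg
AREG (chr4:74444886-74445185, plus strand): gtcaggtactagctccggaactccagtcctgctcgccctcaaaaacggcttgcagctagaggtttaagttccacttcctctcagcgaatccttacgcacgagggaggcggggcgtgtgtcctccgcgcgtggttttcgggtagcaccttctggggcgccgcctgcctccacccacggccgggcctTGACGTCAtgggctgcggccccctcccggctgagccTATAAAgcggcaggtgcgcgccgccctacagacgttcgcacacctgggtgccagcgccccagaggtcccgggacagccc
NUAK2 (chr1:205321696-205321995, minus strand): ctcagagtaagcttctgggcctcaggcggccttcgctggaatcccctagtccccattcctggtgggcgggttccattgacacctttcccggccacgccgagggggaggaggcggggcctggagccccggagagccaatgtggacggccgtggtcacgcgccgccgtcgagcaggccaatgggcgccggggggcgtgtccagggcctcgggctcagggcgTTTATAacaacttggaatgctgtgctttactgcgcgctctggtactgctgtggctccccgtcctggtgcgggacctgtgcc
The F3 promoter held 2 AP-1 matches and a TATA box on the reverse strand, the AREG promoter a cAMP response element and a TATA box, and the NUAK2 promoter a TATA box on the reverse strand alone. AP-1 letters also stood in the promoter of the higher member IL11 and in those of CYP4F3, PTH1R and TSPAN10, which are lower members. Of the 11075 genes under the rule 8827 promoters were matched, also fewer than 80%. In these AP-1 letters stood in 4.03%, the cAMP response element in 3.53%, the E box in 10.4% and the TATA box in 4.84%. These shares describe the matched promoters only and are not a background for the members. A match of letters is not a site shown to be bound.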

How the data were processed

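RNA-seq was read from 4 libraries of DU145 cells. In the submitters' processing notes, HTSeq 0.6.1, HISAT2 2.1.0 and bcl2fastq 2.19.1 are listed beside GRCh37 (hg19). Per library, a table of CPM values by gene was deposited by the authors, with 21973 to 22069 genes, and the sources used here do not state how genes were selected for listing. Genes missing from a table, which reached at most 4.70 CPM elsewhere, were left out (3111 of 23585), and 98.9% of the identifiers had an entry in the table of names. Every CPM was a whole multiple of the smallest value listed in its library, within a tolerance of 0.001. That smallest value was taken to be below that of 1 read pair. It was listed for 176 to 223 genes per library, and its meaning is not given. Whether every other value was a whole number of read pairs was not checked. With 1 read pair taken to be 0.0415 to 0.0448 CPM, depending on the library, the recovered totals were 22332245 to 24088975 read pairs. These totals and the Poisson intervals rest on that choice.

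The main test was limma 3.58.1 (trend) in R 4.3.3 on log2(CPM + 1), for 14942 genes with at least 1 CPM in at least 1 library, with the 3 targeting libraries against the control library and Benjamini-Hochberg adjustment. As alternatives, the recovered read pairs were tested with DESeq2 1.42.0 and with edgeR 4.0.16 (quasi-likelihood). Fold changes are on the log2(CPM + 1) scale. The sources do not say that the libraries came from separate cultures, so p-values measure only the spread between these libraries, and this spread also holds the differences between the siRNAs. Poisson intervals of 95% cover counting error only. The scripts were tested on simulated data.

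Genes named were the 15 with the largest smallest shared change in each direction, PTBP1 and DNMT3B, and 3 measured genes of each list with the largest shared change in either direction; a few others are said to be chosen after their values were seen. Some genes under this rule, and a list, are not reported here. The members and the lists were chosen with earlier results of these data known. 3′ UTRs are from GENCODE v29 (GRCh38), matched by gene identifier, and no coordinate was converted between builds. Other settings tried were pseudocounts of 0.1 and 5, no filter on low values, a minimum average of 5 CPM, quantile and TMM normalization, a fit by condition, a fold of 1.5 and leaving out each targeting library.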

Additional observations from a re-analysis of the deposited data

Results flagged for a closer look

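PTBP1 was flagged because both PTBP1 siRNA libraries were below control and the DNMT3B-L siRNA library was above it. The log2 ratios of CPM + 1 to control were -1.79, -2.77 and 0.08. In limma the mean of the PTBP1 siRNA libraries minus the DNMT3B-L siRNA library was -2.36 (SE 0.38), with an adjusted p of 0.168. PTBP1 is the targeted gene of 2 of the 3 siRNAs and is not among the genes that stood on the same side of control with all 3.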

How the results depend on the processing

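The number of genes called by the test across all genes stayed at 0 in both directions under pseudocounts of 0.1 and 5, no filter, a minimum average of 5 CPM, quantile and TMM normalization, edgeR, DESeq2 and the fit by condition. Leaving out each targeting library gave 0 to 1 genes higher and 0 lower. The 1 gene was PTBP2, a paralog that PTBP1 represses, called (adjusted p 0.016) when the DNMT3B-L siRNA library was left out and only PTBP1 siRNA libraries remained. PTBP2 was at 8.26 CPM with control siRNA, 60.9 and 70.9 with the PTBP1 siRNAs and 6.45 with DNMT3B-L siRNA, so it is not shared by all 3.

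The counts of genes past a fold depended on the settings. At 2-fold, the 3 higher genes became 0 with a pseudocount of 5, and 37 at a fold of 1.5. The 2 lower genes became 7 with no filter, 7 with a pseudocount of 0.1, 0 with a pseudocount of 5, and 48 at a fold of 1.5. Without 1 targeting library each, 7 to 11 genes were higher and 12 to 23 lower at 2-fold, since the rule then asks for 2 libraries in place of 3. At 1.5-fold, settings added after the data were seen gave 19 higher and 16 lower genes with a pseudocount of 5, all of them among the 37 and 48, and 103 lower genes with no filter. Leaving out a targeting library gave 98 to 99 higher and 128 to 178 lower at 1.5-fold. With TMM factors 36 of the 37 and 48 of the 48 genes remained. The fold counts take no test, so edgeR, DESeq2 and the fit by condition do not apply to them, and an average CPM of at least 5 is their own filter.

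Of the 1128 values of 94 genes under 12 alternatives, 1 turned its direction. This says little of stability, because most of these genes were chosen for the same direction in all 3 libraries and none was near the threshold. The value that turned was that of DNMT3B, at -0.18 on the log2 scale with all libraries, 0.10 without the DNMT3B-L siRNA library and down to -0.46 without PTBP1 siRNA 2. No paired analysis was possible because the control group and the DNMT3B-L siRNA group hold 1 library each and nothing in the labels pairs them with the PTBP1 siRNA libraries. The lone control library could not be left out, and its spread was not measured.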
